A study of Mus musculus with 12 samples.

Results

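Lung RNA of mice that received bacterial endotoxin (lipopolysaccharide, LPS) together with the tobacco nitrosamine NNK was compared with lung RNA of mice that received PBS. The comparison used 6 of the 12 arrays of the series, chosen by their labels alone: LPS/NNK arrays 2, 3 and 6 and PBS arrays 1, 2 and 3. All mice were females of the strain FVB/N according to the protocol and FVB/NJ according to the sample fields, aged 7 weeks when treatment began. PBS mice received PBS every week for 16 weeks. LPS/NNK mice were given 5 ug of LPS per mouse into the nose every week for 16 weeks and, within the first 4 weeks, intraperitoneal NNK at 3 mg per mouse, whose schedule is called biweekly in one place and semi-weekly in another. The remaining 6 arrays came from mice given LPS alone or NNK alone, 3 each, and lungs were collected 1 week after the last treatment in every group. No vehicle injection in place of NNK is named for the PBS group, so the groups differ in both agents and in the injections. Whether lung tumours were part of the tissue, or were dissected away, is not given in the sources used here. The question behind the design was whether chronic inflammation from endotoxin promotes lung tumours started by a tobacco carcinogen.

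LPS is part of the outer membrane of Gram-negative bacteria and is sensed by Toll-like receptor 4 with its partners Ly96 and Cd14, which switch on NF-kB and interferon programmes. NNK is a nicotine-derived nitrosamine that cytochrome P450 enzymes of the lung turn into products that alkylate DNA, and in mice it gives lung adenomas. Interferon gamma, made by T cells and natural killer cells, acts through Irf1 and other factors on the genes of antigen presentation and on the chemokines Cxcl9, Cxcl10 and Cxcl11, which draw in cells that carry Cxcr3.

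Each value below is a level on the log2 scale: the array's single-colour fluorescence signal for a probe relative to the 75th percentile of that array, so that 0 is the 75th percentile. A difference is the mean of the 3 LPS/NNK levels minus the mean of the 3 PBS levels, with its standard error (SE), and a gene is said to have risen or fallen where limma's Benjamini-Hochberg adjusted p was under 0.05. Of 21863 items tested (13654 named genes and 8209 sequences with no symbol in the files), 12038 passed, which is 55.1%, with 6106 higher (27.9%) and 5932 lower (27.1%). Among the named genes alone, 32.8% rose and 18.8% fell, and their median difference was 0.20. Those 2 shares are the background for the gene lists below. Counts under another setting are read against its own shares, which were 29.5% and 23.5% under quantile normalization, 25.6% and 6.22% under normexp and 20% and 7.76% with PBS 3 as the only control. Of the 12038 calls, 9320 differed by at least 1 log2 unit, while 391 rose and 288 fell by at least 3. The split between directions depended on the scaling: 4387 rose and 8369 fell when arrays were scaled on the probes detected on all arrays, and 5181 rose and 1338 fell under normexp, a background correction that lifts dim probes. The detected-probe scaling lowers every difference by the same amount, taking the median of all items from -0.04 to -0.40, so it moves no list against another. Normexp raised that median to 0.52, and list medians under it are given relative to it. It adds a fixed offset of 50 signal units, which weighs more on the dimmer LPS/NNK arrays described below. By its construction it thus raises the differences of dim genes that fell or changed little. The same offset shrinks large rises from a dim level. For a dim gene, a fall that is lost or turns positive under normexp cannot decide whether the gene fell.

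The arrays of the 2 groups differed in brightness, and 2 PBS arrays went against their labels. The share of spots that the scanner software marked as well above background ran from 70.2% to 73.1% in PBS and from 56.4% to 66.3% in LPS/NNK. The 75th percentile of the signal, in scanner units, was 983.6, 947.4 and 699.2 on PBS arrays 1, 2 and 3 and 509.7, 192.0 and 183.4 on LPS/NNK arrays 2, 3 and 6. The spike-in controls, RNA added in fixed amounts, were the brighter on LPS/NNK arrays, with a median log2 signal of 10.86 to 11.03 against 9.05 to 10.09 on PBS arrays. Relative to each array's 75th percentile, which was lower in LPS/NNK, these medians were 1.87 to 3.45 and -0.40 to 0.20. The lowest level that counted as detected was higher on the LPS/NNK arrays, at -5.85, -4.90 and -4.90, than on the PBS arrays, at -6.44, -6.39 and -6.50. Of the items that fell, 1328 (22.39%) were not well above background on any LPS/NNK array, so their falls are bounded by that limit. A probe was tested if well above background on all 3 arrays of some group, as 27901 were in PBS and 22189 in LPS/NNK. Items dim in LPS/NNK could thus enter through PBS alone, so falls among them follow in part from the filter. Without the filter 12728 items rose and 5928 fell. Probes well above background on none of the 6 arrays had a median difference of 1.36. Scaling on the spike-in controls in place of the 75th percentile would add -2.95 to every difference, so rises and falls are relative to the rest of each array. The part of brightness in any result was not tested. All 3 PBS arrays lay at position 1 of their slides and all 3 LPS/NNK arrays at position 4. Position on the slide therefore cannot be told apart from treatment. Only PBS 1 and LPS/NNK 6 shared a slide. Xist, the RNA made from the inactive X chromosome of females, was at -8.43, -8.40 and -1.69 on PBS arrays 1, 2 and 3 and at -2.63, -2.50 and -1.83 on the LPS/NNK arrays. The Y-linked genes Ddx3y, Eif2s3y, Kdm5d and Uty were well above background on PBS arrays 1 and 2 and on no other array of the series. Both sides of that pattern are the male one, on arrays labelled as female. For this reason counts are also given with PBS 3 as the only control array, a fit in which 2732 named genes rose and 1060 fell. That fit has no replicate of PBS: its spread comes from the other 3 groups, and the lone PBS array is assumed to vary like them. Nothing in the labels says that the arrays came from separate animals, so the p-values measure the spread between these samples. The markers that define lung tissue were among the brightest probes on all 6 arrays, with Sftpc, the surfactant protein of alveolar type 2 cells, at 8.41 to 9.36 on PBS arrays and 9.64 to 10.97 on LPS/NNK arrays.

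**Figure D1:**
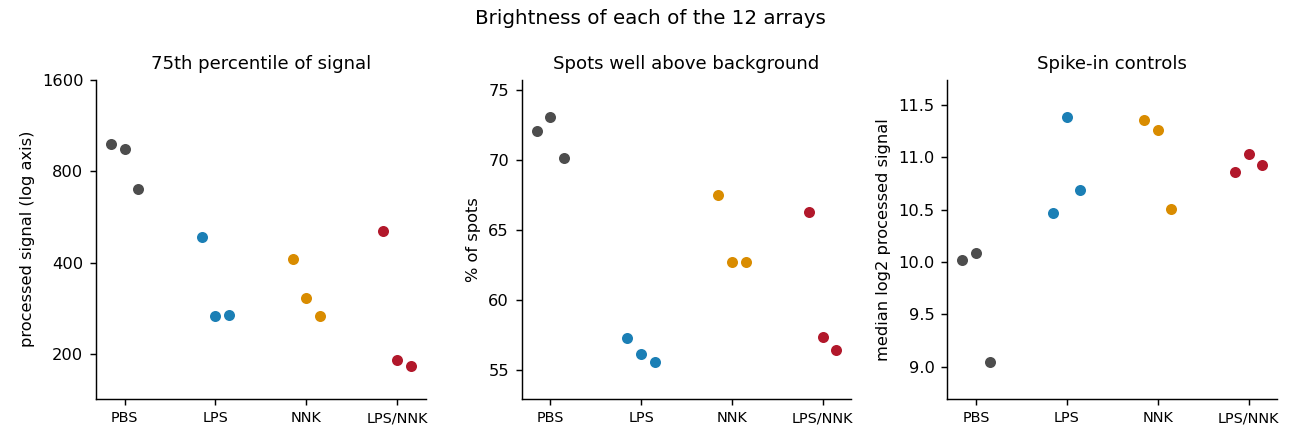
Brightness of the 12 arrays by group. The panels give the 75th percentile of the signal in scanner units, the percentage of spots well above background and the median log2 signal of the spike-in controls. That signal is not relative to the 75th percentile. LPS/NNK arrays 3 and 6, at a 75th percentile of 192.0 and 183.4 units, lie far below the PBS arrays, at 699.2 to 983.6.

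**Figure D2:**
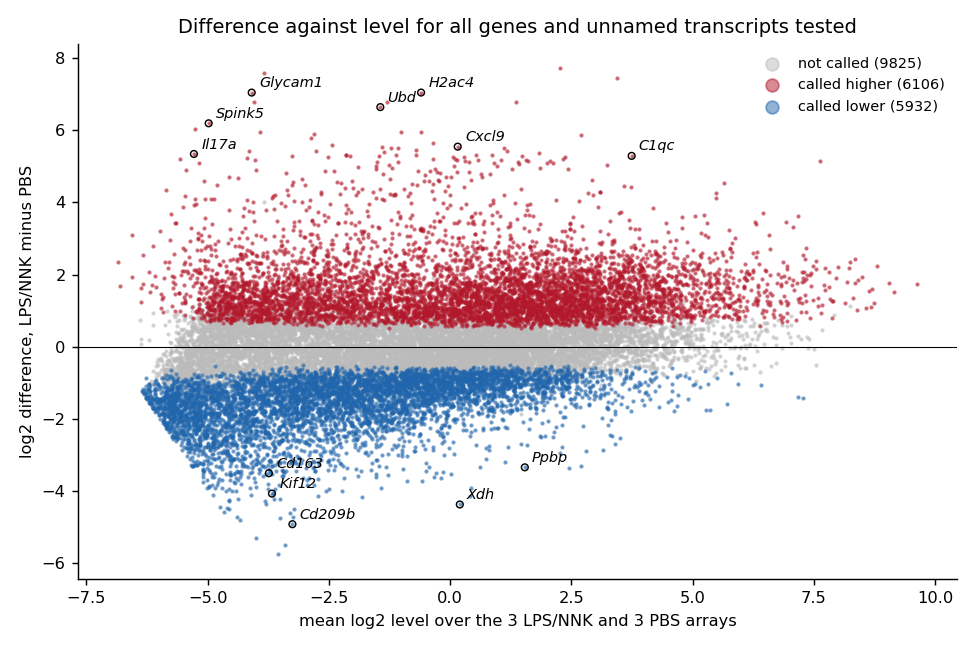
Difference between LPS/NNK and PBS for every item tested. The x axis gives the mean level of the 6 arrays and the y axis the log2 difference, coloured by call. In all, 6106 items rose and 5932 fell, and falls are the more frequent at low levels. The filter favours such falls, since 27901 probes passed it on the PBS arrays and 22189 on the LPS/NNK arrays.

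The genes of the interferon gamma and T helper 1 axis were higher in LPS/NNK lung. Of the 18 tested members of that list, 14 rose and 2 fell, with a median difference of 1.98, and the direction held under all 4 other scalings tried. With PBS 3 as the only control, 10 rose and none fell. Ifng itself, the cytokine that gives the axis its name, was at -2.28, -3.36 and -1.92 on PBS arrays 1, 2 and 3 and at 1.24, 1.82 and 2.30 on LPS/NNK arrays 2, 3 and 6. Every LPS/NNK value lay above every PBS value, a difference of 4.31 (SE 0.43, 19.8-fold, adjusted p = 9.3e-06). Cxcl9, an interferon-induced chemokine, was at 0.20, -4.94 and -3.12 on PBS arrays and at 2.28, 3.33 and 3.18 on LPS/NNK arrays. PBS 1 stood far above the other PBS arrays for Cxcl9 but still below all LPS/NNK arrays, and the difference was 5.55 (SE 0.97, 46.8-fold, adjusted p = 0.00039). Its receptor Cxcr3 was at -0.83, -1.13 and -0.19 on PBS arrays and at 3.41, 4.02 and 3.50 on LPS/NNK arrays. The groups for Cxcr3 were tight and wide apart, with a difference of 4.36 (SE 0.27, adjusted p = 9.5e-07). Cxcr6, a chemokine receptor of tissue T cells, rose by 3.53 (SE 0.33), and Il12rb1, the receptor subunit through which T cells sense interleukin 12, by 4.10 (SE 0.33). The 2 members that fell were the cytokine gene Il18, with a difference of -0.73 (SE 0.26, adjusted p = 0.030), and Il18r1, a chain of its receptor, with -0.92 (SE 0.35, adjusted p = 0.039). Neither fall passed with PBS 3 as the only control.

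Genes that interferons induce more broadly rose in part. Of 33 tested, 16 rose and 1 fell, with a median of 1.06, again in the same direction under all scalings. The size depended on the setting. Relative to all items the median was 1.1, but 0.655 under quantile normalization, 0.696 under cyclic loess and 0.29 under normexp. With PBS 3 as the only control it was 0.34. The median level of the list on PBS 3 (1.24) lay close to that on LPS/NNK 2 (1.27). Ubd, a ubiquitin-like protein that marks proteins for degradation, was at -3.74, -7.70 and -2.85 on PBS arrays and at 1.27, 2.38 and 2.0 on LPS/NNK arrays. It was well above background on 2 of 3 PBS arrays. With PBS 2, the lowest array by far, set to the lowest detected level, Ubd was 74.0-fold higher, and the fit on the measured values gave 6.64 (SE 0.88, adjusted p = 5.7e-05). Gbp5, a guanylate-binding protein of macrophage defence, was at 0.59, -0.23 and 1.57 on PBS arrays and at 2.87, 3.85 and 3.02 on LPS/NNK arrays, so the groups did not overlap. Oas2 and Oasl2, of the antiviral oligoadenylate synthetase family, rose by 3.25 (SE 0.48) and 2.72 (SE 0.39). The member that fell was Rsad2, the antiviral enzyme viperin, at 0.68, 0.57 and 0.24 on PBS arrays and -1.11, -0.74 and -0.61 on LPS/NNK arrays. Its 3 probes gave differences from -2.26 to -1.32, so all went the same way, but the call was lost with PBS 3 as the only control (adjusted p = 0.093).

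The 250 bases before the annotated start of 4 genes that rose and of Rsad2, which fell, are shown as examples. They were picked by hand from the interferon, antigen presentation and NF-kB results, and each holds a match. Other leading genes, such as Ifng, Cxcl9, Cxcr3 and H2-Ab1, are not shown. The sequences are from RefSeq on build GRCm38.p6, 5′ to 3′ on the strand of the gene, and end at the base before the start. Capitals mark matches, on either strand, to GAS (TTC and GAA with any 3 bases between them, the interferon gamma-activated sequence), ISRE (GAAA and GAAA with any 2 bases between them, the interferon-stimulated response element) or kB (GGG and TTTCC with any 2 bases between them, bound by NF-kB). In these 5 windows no match overlapped another. The windows are chr3:142496684-142496933 on the plus strand for Gbp5, chr17:37193642-37193891 plus for Ubd, chr17:34197945-34198194 plus for Psmb8, chr19:46304487-46304736 plus for Nfkb2 and chr12:26456453-26456702 minus for Rsad2.
Gbp5: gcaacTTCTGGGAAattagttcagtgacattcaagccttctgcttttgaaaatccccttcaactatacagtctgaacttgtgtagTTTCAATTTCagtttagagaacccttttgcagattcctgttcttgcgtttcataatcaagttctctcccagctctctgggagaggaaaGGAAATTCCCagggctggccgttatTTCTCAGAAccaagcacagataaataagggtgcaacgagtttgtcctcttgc
Ubd: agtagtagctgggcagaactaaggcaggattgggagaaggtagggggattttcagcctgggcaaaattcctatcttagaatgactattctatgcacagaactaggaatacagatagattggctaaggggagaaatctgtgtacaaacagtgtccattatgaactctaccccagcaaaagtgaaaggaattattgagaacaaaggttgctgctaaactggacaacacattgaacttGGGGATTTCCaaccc
Psmb8: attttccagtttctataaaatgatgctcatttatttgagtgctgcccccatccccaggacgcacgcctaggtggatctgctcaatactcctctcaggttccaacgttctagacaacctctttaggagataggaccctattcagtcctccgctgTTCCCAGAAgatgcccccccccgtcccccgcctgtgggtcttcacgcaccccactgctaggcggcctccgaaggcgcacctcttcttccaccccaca
Nfkb2: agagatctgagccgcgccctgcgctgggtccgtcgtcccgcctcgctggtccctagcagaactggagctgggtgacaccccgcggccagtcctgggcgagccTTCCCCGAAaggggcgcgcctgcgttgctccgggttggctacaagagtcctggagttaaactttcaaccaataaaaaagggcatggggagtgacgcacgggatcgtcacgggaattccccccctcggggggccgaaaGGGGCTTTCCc
Rsad2: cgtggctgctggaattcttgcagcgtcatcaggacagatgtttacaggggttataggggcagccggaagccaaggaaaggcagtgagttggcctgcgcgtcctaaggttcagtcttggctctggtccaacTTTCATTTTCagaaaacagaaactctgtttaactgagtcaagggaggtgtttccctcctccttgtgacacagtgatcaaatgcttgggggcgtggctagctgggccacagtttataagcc
Gbp5 held GAS matches that begin 245 and 52 bases before the start, an ISRE match at 165 and a kB match at 77. Psmb8, an immunoproteasome subunit, held a GAS match at 97, and Ubd a kB match at 15. Nfkb2, the NF-kB subunit p100, held a GAS match at 148 and a kB match at 11, and Rsad2 an ISRE match at 120. Over 27025 RefSeq promoters of the same length, 7.18% held GAS, 3.04% ISRE and 1.4% kB. Of the interferon-induced list, 18 of 27 promoters found (66.7%) held ISRE and 8 (29.6%) held GAS. The ISRE share was 9 of 13 (69.2%) among its members that rose and 9 of 14 (64.3%) among the others. Across named genes with a promoter entry, ISRE stood in 2.83% of the 3567 that rose and 2.16% of the 2040 that fell, and kB in 1.6% and 1.32%. GAS stood in 6.22% and 6.32%. Of the MHC class I and immunoproteasome list 2 of 13 promoters (15.4%) held GAS. The 4 promoters found for class II genes that rose held no GAS, ISRE or kB match. In the Toll-like receptor and NF-kB list, 4 of 17 promoters (23.5%) held kB. That share was 2 of 11 (18.2%) among its members that rose and 2 of 6 (33.3%) among the others. A match describes letters only and shows no binding.

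Antigen presentation genes rose nearly as whole lists. Of 14 tested genes of MHC class I presentation and the immunoproteasome, 13 rose and none fell, with a median of 1.74, while 8 of 14 rose under quantile normalization, in the same direction. Psmb8, whose promoter is shown above, was at 3.70, 2.87 and 4.20 on PBS arrays and at 6.60, 7.21 and 6.39 on LPS/NNK arrays. The difference of 3.14 (SE 0.36, 8.84-fold, adjusted p = 2.3e-05) was several times the spread within either group. Psmb9, the partner subunit of Psmb8, rose by 2.42 (SE 0.37), Tapbp, which loads peptide onto class I, by 2.48 (SE 0.35) and the heavy chain gene H2-K1 by 2.44 (SE 0.37). Probes of Tapbp and H2-K1 did not give 1 size, with lowest differences of 0.73 and 0.69, and H2-K1 belongs to a family of near-identical genes whose probes may cross-hybridise. Of 9 tested class II genes 7 rose and none fell, with a median of 2.91, the highest median of all lists with at least 5 tested members. Relative to all items that median was 2.95, and 2.32 with PBS 3 as the only control. Under cyclic loess it was 1.88, beside 1.89 for the T cell list. H2-Ab1, the class II beta chain, was at 5.43, 4.77 and 5.85 on PBS arrays and at 8.77, 9.39 and 8.78 on LPS/NNK arrays. That is a difference of 3.63 (SE 0.29, 12.4-fold, adjusted p = 2.6e-06) in one of the brightest probes. Cd74, the invariant chain that escorts class II, rose by 3.31 (SE 0.29), H2-DMa, which edits the bound peptide, by 3.35 (SE 0.32) and H2-Oa, which restrains that editing, by 3.98 (SE 0.31).

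**Figure D3:**
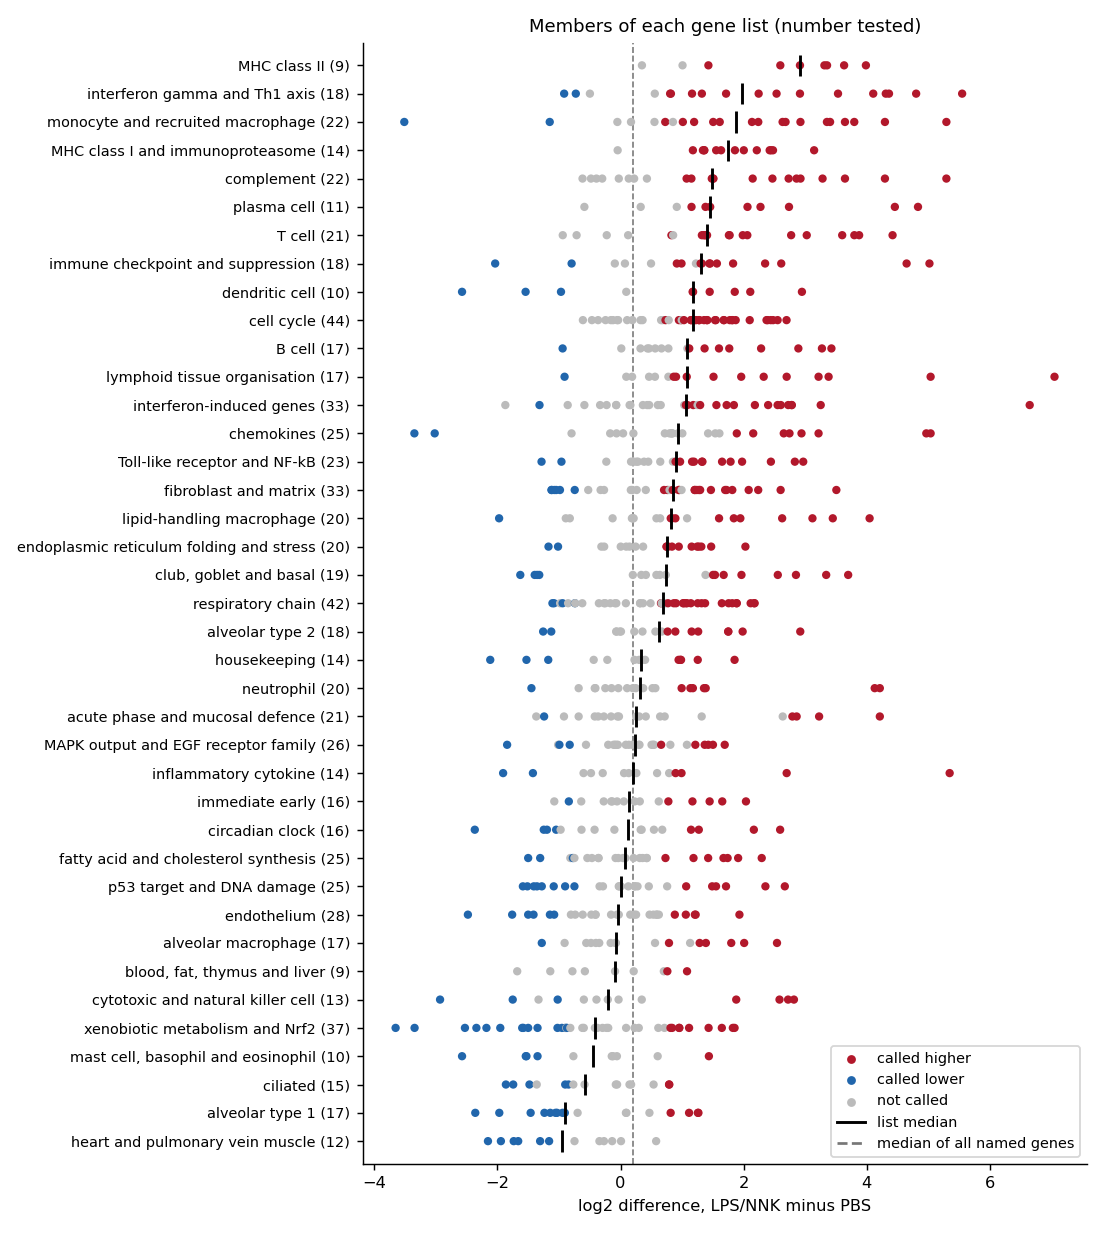
Log2 differences between LPS/NNK and PBS for the tested members of 39 gene lists, ordered by their median. Points are genes, ticks are list medians, and the dashed line is the named-gene median of 0.20; the MHC class II list, at 2.91, lies farthest to the right, while the order of lists near the line depends on the scaling.

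Marker genes of T cells, B cells and plasma cells were higher in LPS/NNK lung under every scaling. In bulk tissue, more cells of a type and more RNA per cell cannot be told apart. Of 21 T cell genes 16 rose and none fell (median 1.41), and 10 rose with PBS 3 alone. Thy1, a surface protein of T cells that some stromal cells carry too, was at 1.38, 1.09 and 2.09 on PBS arrays and at 5.17, 6.50 and 6.15 on LPS/NNK arrays. Its difference was 4.42 (SE 0.36, 21.4-fold, adjusted p = 2.6e-06). Cd5 and Cd6, surface brakes on T cell receptor signalling, rose by 3.60 (SE 0.33) and 3.88 (SE 0.35), and the adaptor Lat by 3.02 (SE 0.33). Of 17 B cell genes 8 rose (median 1.09), among them the adaptor Blnk, by 3.27 (SE 0.28), Pou2af1, a coactivator of antibody gene transcription, by 2.89 (SE 0.27), Cd72 by 3.42 (SE 0.52) and Cd37 by 2.28 (SE 0.30). The B cell factor Ebf1 was the 1 that fell, at -2.10, -1.47 and -2.26 on PBS arrays and -2.20, -3.17 and -3.28 on LPS/NNK arrays, so the groups overlapped, and it turned positive under normexp. The Ebf1 call was also lost under quantile normalization, cyclic loess and PBS 3 alone. Of 11 plasma cell genes 8 rose and none fell (median 1.46). Jchain, which joins IgA and IgM into polymers, was at 0.93, 0.38 and 2.76 on PBS arrays and at 5.63, 5.63 and 6.17 on LPS/NNK arrays. PBS 3 was the highest of its group, and the difference was 4.46 (SE 0.48, 21.9-fold, adjusted p = 1.5e-05). Derl3, which clears misfolded protein from secretory cells, had the largest rise of the list, with -2.49, -2.51 and -2.85 against 2.49, 2.12 and 2.04 and a difference of 4.83 (SE 0.25, adjusted p = 3.5e-07). Mzb1, a chaperone of antibody assembly, rose by 2.74 (SE 0.31) and the syndecan Sdc1 by 1.46 (SE 0.23).

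Cytotoxic and natural killer cell genes divided. Of 13 tested, 4 rose and 3 fell, and the list median was -0.21, which turned to 0.05 under quantile normalization. Relative to all items it was -0.17 and turned to 0.17 under normexp. The 4 that rose were Il2rb, a receptor chain for interleukins 2 and 15, by 2.58 (SE 0.30), the granule protein Nkg7 by 2.82 (SE 0.34), the protease Ctsw by 2.72 (SE 0.36) and the transcription factor Eomes by 1.88 (SE 0.32). The 3 that fell were the natural killer receptors Ncr1, with a difference of -2.93 (SE 0.56), and Klrb1c, with -1.02 (SE 0.38), and the granzyme Gzma, with -1.75 (SE 0.48). Gzma was at -1.30, -1.43 and 0.16 on PBS arrays and at -3.05, -2.14 and -2.63 on LPS/NNK arrays, without overlap. None of these 3 falls passed under normexp, and Klrb1c did not pass under quantile normalization or cyclic loess either. Ncr1 was well above background on 2 of 3 LPS/NNK arrays.

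Genes that organise lymphoid tissue rose with the lymphocyte markers. Of 17 tested, 11 rose and 1 fell (median 1.08, same direction under all scalings), and with PBS 3 alone 8 rose and none fell. Glycam1, a mucin-like ligand made by the high endothelial venules of lymph nodes, was at -8.48, -8.42 and -5.93 on PBS arrays and at -0.86, -0.34 and -0.50 on LPS/NNK arrays. It was well above background on 1 of 3 PBS arrays and on all LPS/NNK arrays, and with the other PBS arrays set to the lowest detected level it was 51.6-fold higher (adjusted p = 3.1e-05 for the measured values). Ccl19, the chemokine of T cell zones, was at 1.64, -0.05 and 0.54 on PBS arrays and at 5.00, 6.29 and 5.95 on LPS/NNK arrays. That is 32.8-fold higher (log2 difference 5.04, SE 0.41, adjusted p = 2.8e-06), with no overlap. The cytokine lymphotoxin alpha, Lta, rose by 3.38 (SE 0.28) and the lymphotoxin receptor Ltbr by 2.33 (SE 0.35).

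Checkpoint receptors were higher as well. Of 18 genes of immune checkpoint and suppression, 12 rose and 2 fell, with a median of 1.31 and the same direction under all scalings. Lag3, an inhibitory receptor of T cells that binds class II, was at -3.38, -4.51 and -4.23 on PBS arrays and at 0.59, 0.70 and 1.64 on LPS/NNK arrays. Every LPS/NNK array was above every PBS array, a difference of 5.02 (SE 0.34, 32.4-fold, adjusted p = 1e-06). Pdcd1, the receptor PD-1, was at -2.11, -4.84 and -3.73 on PBS arrays and at 0.32, 0.83 and 2.11 on LPS/NNK arrays, a difference of 4.65 (SE 0.62). Its ligands rose less, Cd274 (PD-L1) by 1.83 (SE 0.31) and Pdcd1lg2 (PD-L2) by 2.61 (SE 0.36). The 2 members that fell were Arg1, an arginase of some macrophages, with -2.04 (SE 0.48), and Nt5e, the ecto-enzyme CD73, with -0.79 (SE 0.30). Arg1 was not well above background on any LPS/NNK array, which bounds its fall at at least 3.59-fold lower, a fold set by means of measured or lowest detected levels, as all bounds here, and under normexp it turned positive. The Nt5e call was lost under normexp and with PBS 3 alone.

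**Figure D4:**
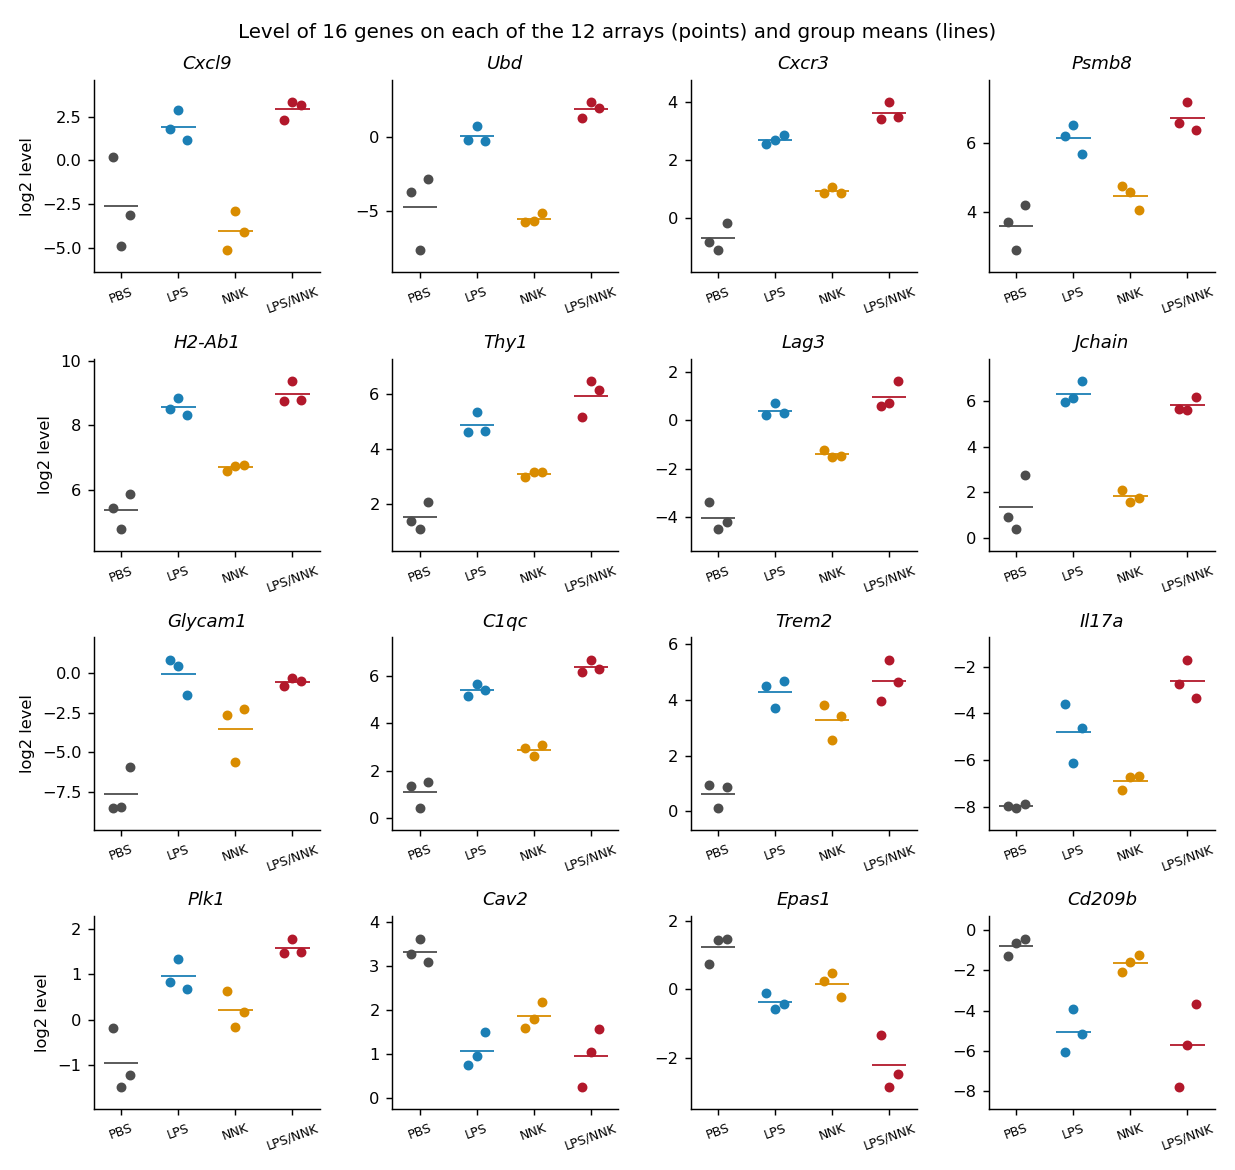
Levels of 16 genes on the 12 arrays, on the log2 scale relative to each array's 75th percentile. Points are arrays grouped by treatment and lines are group means of 3 arrays; Lag3 lies at -4.51 to -3.38 on PBS arrays and at 0.59 to 1.64 on LPS/NNK arrays, and Cd209b and Epas1 run the opposite way.

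Genes of monocytes and recruited macrophages and genes of complement were higher in LPS/NNK lung. Of 22 genes of monocytes and recruited macrophages 16 rose and 2 fell (median 1.87), and with PBS 3 alone 14 rose and 2 fell. C1qc, a chain of the first complement component that tissue macrophages make, was at 1.35, 0.42 and 1.52 on PBS arrays and at 6.16, 6.70 and 6.31 on LPS/NNK arrays. The difference of 5.29 (SE 0.30, 39.2-fold, adjusted p = 6.2e-07) came with no overlap, and its sister chains C1qa and C1qb rose by 4.29 (SE 0.37) and 3.65 (SE 0.32). Cx3cr1, the receptor for fractalkine, rose by 3.35 (SE 0.30). The scavenger receptor Cd163 and the monocyte gene Ms4a4c were the 2 that fell. Cd163 was at -2.32, -2.23 and -1.39 on PBS arrays and at -6.75, -5.17 and -4.57 on LPS/NNK arrays, none of them well above background, so it was at least 8.72-fold lower; the fall did not pass under normexp. Ms4a4c differed by -1.15 (SE 0.32). Of 22 complement genes 14 rose and none fell (median 1.49), also under normexp, among them properdin, Cfp, by 2.86 (SE 0.29). The median of both lists was positive under all scalings.

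Lipid-handling macrophage genes rose in 10 of 20 and fell in 1, with a median of 0.83 and no change of direction between scalings. The size did depend on the scaling. Relative to all items the median was 0.86, but 0.24 under quantile normalization, 0.20 under cyclic loess and 0.08 under normexp. Trem2, a lipid-sensing receptor, was at 0.93, 0.12 and 0.86 on PBS arrays and at 3.95, 5.45 and 4.65 on LPS/NNK arrays, a difference of 4.04 (SE 0.42, 16.5-fold, adjusted p = 1.3e-05). Apoe, the apolipoprotein, rose by 3.45 (SE 0.33) and the lysosomal protease Ctsd by 2.62 (SE 0.25). The fatty acid transporter Cd36 fell, from 4.02, 4.14 and 4.21 on PBS arrays to 1.76, 2.03 and 2.65 on LPS/NNK arrays, a difference of -1.97 (SE 0.25); it is also made by endothelium. The alveolar macrophage list did not move as a whole. Of 17 tested 6 rose and 1 fell, with a median of -0.08, below the named-gene median. The growth factor receptor chains Csf2ra and Csf2rb rose by 2.54 (SE 0.31) and 1.39 (SE 0.22), Plet1 by 2.01 (SE 0.29) and the cholesterol exporter Abcg1 by 1.80 (SE 0.34), while Krt79 differed by -1.28 (SE 0.42), a call lost with PBS 3 alone. Dendritic cell genes rose in 6 of 10 and fell in 3 (median 1.17). Batf3, a factor of cross-presenting dendritic cells, rose by 2.95 (SE 0.30), the integrin Itgax by 2.11 (SE 0.28) and the bundling protein Fscn1 by 1.85 (SE 0.35). The 3 that fell were Cd209a, which was well above background on no LPS/NNK array and at least 4.04-fold lower, the plasmacytoid marker Siglech (-1.54, SE 0.32; well above background on 1 of 3 LPS/NNK arrays) and Zbtb46 (-0.97, SE 0.38). All 3 were lost under normexp, where Cd209a and Siglech turned positive, Siglech and Zbtb46 with PBS 3 alone, and Zbtb46 under quantile normalization and cyclic loess.

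Granulocyte markers gave a mixed picture. Of 20 neutrophil genes 7 rose and 1 fell, with a median of 0.31. Relative to all items that median was 0.35, and it turned to -0.09 under normexp. Lrg1, a glycoprotein of granulocytes that vessels and epithelium make too, was at 4.42, 2.59 and 3.26 on PBS arrays and at 7.30, 7.86 and 7.48 on LPS/NNK arrays, a difference of 4.13 (SE 0.42, 17.5-fold). The granule enzymes Mpo and Padi4 rose by 1.35 (SE 0.28) and 1.14 (SE 0.26) at low levels, and Padi4 did not pass with PBS 3 alone. Ltf, lactoferrin, was at -0.09, -0.43 and 3.04 on PBS arrays and at 6.29, 6.09 and 2.77 on LPS/NNK arrays. PBS 3 and LPS/NNK 6 overlapped, and the difference of 4.21 (SE 0.98, adjusted p = 0.0027) fell to 2.01 (adjusted p = 0.21) with PBS 3 alone. Trem1, which amplifies Toll-like receptor signals, was the 1 that fell, by 1.45 on the log2 scale (SE 0.40), and did not pass under normexp. Of 10 mast cell, basophil and eosinophil genes 1 rose and 4 fell, and the median of -0.45, which was -0.42 relative to all items, turned to 0.15 on that relative scale under normexp. Hdc, the histamine-making enzyme, rose by 1.44 (SE 0.28), but the call was lost under quantile normalization (0.61, adjusted p = 0.11), cyclic loess (0.40, adjusted p = 0.30) and with PBS 3 alone (0.94, adjusted p = 0.091). Kit, Il1rl1 and Cma1 had differences of -1.53 (SE 0.27), -1.54 (SE 0.33) and -1.35 (SE 0.48), and Cpa3 was well above background on no LPS/NNK array and at least 2.53-fold lower. Under normexp only Kit of the 4 fell, and Cpa3 turned positive. Cma1 did not pass under quantile normalization or cyclic loess either.

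The chemokine, cytokine and mucosal lists rose in shares at or below the background. Of 25 chemokines 8 rose and 2 fell (median 0.93, same direction under all scalings). The median level of the chemokine list was nevertheless higher on PBS 1 (1.64) than on LPS/NNK arrays 2, 3 and 6 (-0.51, 0.01 and 1.11). On PBS 2 and 3 it was -1.91 and -1.75. For the cytokine and mucosal lists, too, the median level on PBS 1 (-2.17 and 3.125) lay above every LPS/NNK array. Ccl8, a monocyte chemoattractant, was at 0.23, -1.91 and -0.23 on PBS arrays and at 3.65, 5.01 and 4.34 on LPS/NNK arrays, 31.2-fold higher (log2 difference 4.97, SE 0.53, adjusted p = 1.5e-05). Cx3cl1, fractalkine, rose by 1.89 (SE 0.29). The 2 that fell were the eosinophil chemoattractant Ccl24, with -3.02 (SE 0.40; well above background on 1 of 3 LPS/NNK arrays and positive under normexp), and the platelet chemokine Ppbp, at 3.02, 3.38 and 3.24 on PBS arrays and -1.19, -0.27 and 1.06 on LPS/NNK arrays (difference -3.35, SE 0.57). Of 14 inflammatory cytokines 4 rose and 2 fell, and the median was 0.20, as for all named genes. Il17a, the T cell cytokine that calls neutrophils to mucosa, was at -7.96, -8.04 and -7.86 on PBS arrays, never well above background, and at -2.76, -1.71 and -3.36 on LPS/NNK arrays, always so. It was at least 14.3-fold higher (adjusted p = 8.9e-06). Tnf rose by 2.70 (SE 0.67), Il10 by 0.99 (SE 0.30) and Il13 by 0.89 (SE 0.36, adjusted p = 0.049), though Il10 was well above background on 1 of 3 LPS/NNK arrays and Il13 on 2. The differences of Il10 and Il13 were smaller than the median of 1.36 for probes well above background on none of the 6 arrays. For these dim genes the rises therefore cannot be told apart from that shift. The Il10 call was lost under cyclic loess and without PBS 3, and the Il13 call with PBS 3 alone and without PBS 1, PBS 3, LPS/NNK 2 or LPS/NNK 6. Il1a was well above background on no LPS/NNK array and at least 2.52-fold lower, and the epithelial cytokine Tslp had a difference of -1.91 (SE 0.46). Neither fall passed under normexp, where Il1a turned positive, or with PBS 3 alone. Of 21 acute phase and mucosal defence genes 4 rose and 1 fell, and the median of 0.25 lay near the named-gene median and turned negative under quantile normalization (-0.17) and cyclic loess (-0.05). Relative to all items it was 0.29, and -0.12 under normexp. The 4 were Ltf, the antiprotease Slpi, by 3.23 (SE 0.47), Pigr, which carries IgA across epithelium, by 2.86 (SE 0.58), and lipocalin, Lcn2, by 2.79 (SE 0.88). Slpi has a second probe at -0.07. Lcn2 was at 3.18, -0.80 and -1.41 on PBS arrays and at 3.13, 3.79 and 2.42 on LPS/NNK arrays, so PBS 1 lay within the LPS/NNK range. Without LPS/NNK 3 the Lcn2 call was lost (2.45, adjusted p = 0.059), as it was without PBS 2 (2.23, adjusted p = 0.073) or PBS 3 (1.93, adjusted p = 0.081). Hemopexin, Hpx, had a difference of -1.24 (SE 0.43), with overlapping groups, turned positive under normexp and did not pass under quantile normalization, cyclic loess or with PBS 3 alone.

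Of 23 Toll-like receptor and NF-kB genes 12 rose and 2 fell (median 0.89, same direction under all scalings), and 10 rose with PBS 3 alone. The largest rises were regulators of the pathway. Nfkb2, whose promoter is shown above, was at 1.39, 0.35 and 1.22 on PBS arrays and at 3.58, 3.42 and 3.29 on LPS/NNK arrays, a difference of 2.44 (SE 0.31, 5.43-fold, adjusted p = 4.6e-05). Its partner Relb rose by 1.97 (SE 0.28), the inhibitor Nfkbie by 2.83 (SE 0.33), the brake Tnip1 by 1.79 (SE 0.24) and the coactivator Bcl3 by 2.97 (SE 0.48). The 2 that fell were the endosomal receptors Tlr3 (-0.96, SE 0.26) and Tlr8 (not well above background on any LPS/NNK array, so at least 1.25-fold lower), and both turned positive under normexp. The Tlr8 call was lost without PBS 2, PBS 3, LPS/NNK 3 or LPS/NNK 6. It was lost as well when only the 2 groups were fitted and in the trended robust fit. The Tlr3 call was also lost under cyclic loess and with PBS 3 alone.

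**Figure D5:**
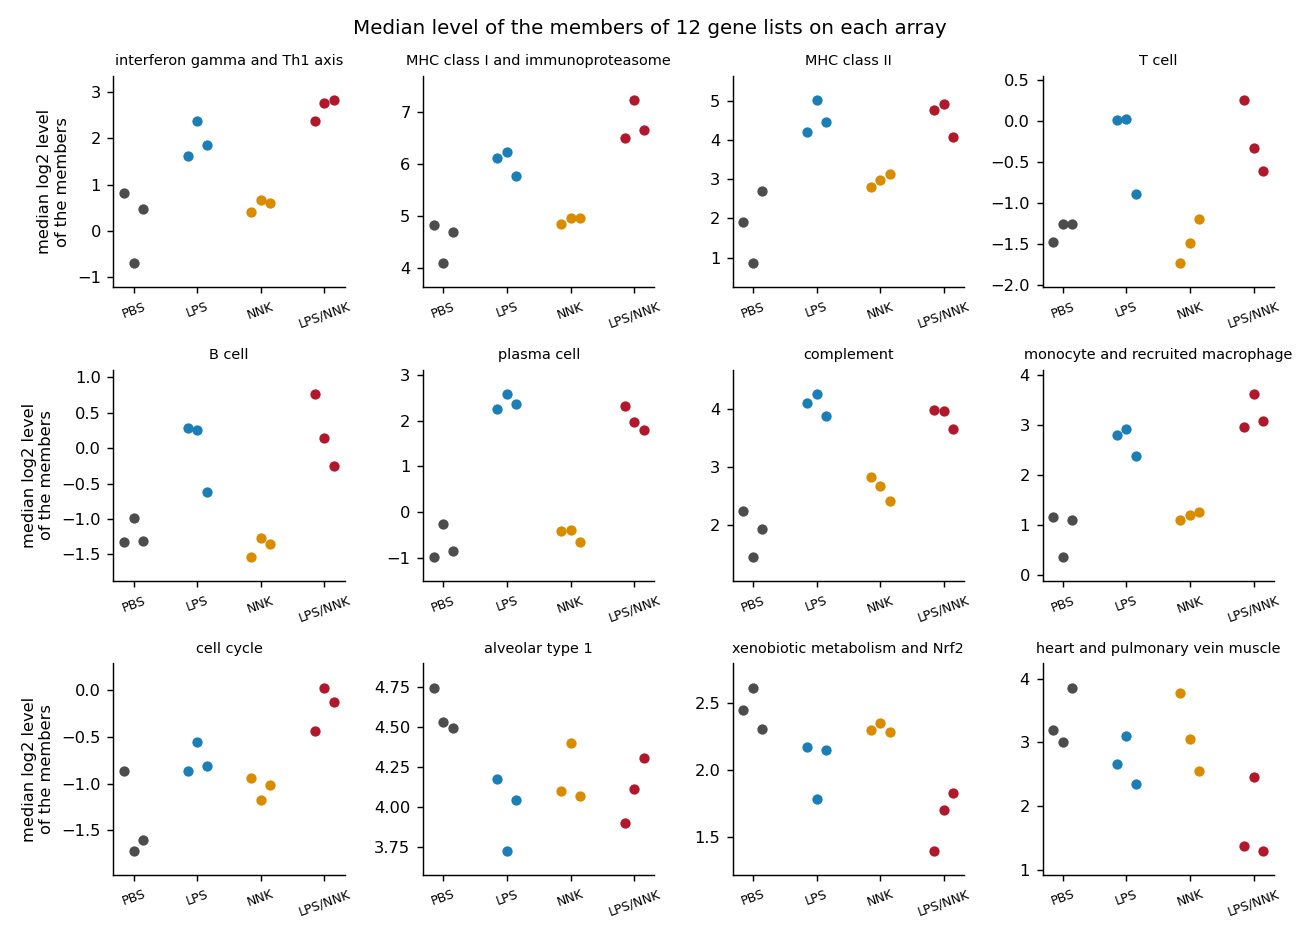
Median level of 12 gene lists on each of the 12 arrays, on the log2 scale relative to each array's 75th percentile. Each point is 1 array; the MHC class II list lies at 0.87 to 2.71 on PBS arrays and at 4.08 to 4.92 on LPS/NNK arrays, and the plasma cell list at -0.97 to -0.26 and at 1.80 to 2.32.

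In the alveolar epithelium, type 1 genes were more often lower and type 2 genes more often higher, the latter depending on the scaling. Of 17 type 1 genes 9 fell and 4 rose, with a median of -0.90 that stayed negative under all scalings, and 9 fell under normexp too. With PBS 3 alone 4 fell and 3 rose. Cav2, a caveolar coat protein that endothelium makes as well, was at 3.25, 3.62 and 3.08 on PBS arrays and at 0.26, 1.05 and 1.57 on LPS/NNK arrays, a difference of -2.36 (SE 0.33, adjusted p = 9.1e-05). The type 1 factor Hopx fell by 1.46 (SE 0.27) and the surface mucin Pdpn by 1.97 (SE 0.38), both on the log2 scale. The 4 that rose were the water channel Aqp5 (1.26, SE 0.26), the basement membrane collagen Col4a4 (1.26, SE 0.24), the lung tumour suppressor Gprc5a (1.11, SE 0.23) and the sodium channel subunit Scnn1a (0.81, SE 0.29), the last of which was negative under quantile normalization and, like Gprc5a, under cyclic loess. None of the 4 passed under normexp. Aqp5 dropped to 0.21 (adjusted p = 0.42) under quantile normalization and to 0.0059 (adjusted p = 0.98) under cyclic loess, Gprc5a did not pass under quantile normalization, and Scnn1a did not pass with PBS 3 alone. Of 18 type 2 genes 8 rose and 2 fell, and the median of 0.62 turned to -0.23 under cyclic loess. Relative to all items it was 0.66, and -0.10 under normexp. Napsa, a protease that matures surfactant protein, was at 4.46, 4.61 and 4.41 on PBS arrays and at 6.24, 6.45 and 6.04 on LPS/NNK arrays (difference 1.75, SE 0.22), a call lost under cyclic loess (0.57, adjusted p = 0.087), and the lipid pump Abca3 rose by 1.98 (SE 0.30). Sftpc differed by 1.75 (SE 0.38) and Sftpa1 by 1.16 (SE 0.24), but both were negative under cyclic loess, and Sftpa1 also under quantile normalization, where Sftpc did not pass. Sftpc did not pass with PBS 3 alone and Sftpa1 not under normexp. The chitinase-like Chil1 was at 5.08, 2.05 and 2.07 on PBS arrays, PBS 1 standing apart, and at 5.88, 6.58 and 5.50 on LPS/NNK arrays. The 2 that fell were Etv5, a factor that maintains type 2 cells, by 1.26 (SE 0.40), and Hc, complement C5, by 1.12 (SE 0.41), both on the log2 scale. The Etv5 call was lost under normexp, with PBS 3 alone and without PBS 2, LPS/NNK 3 or LPS/NNK 6, and the Hc call without PBS 1, PBS 3, LPS/NNK 2 or LPS/NNK 3.

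Airway genes diverged among themselves. Of 19 club, goblet and basal cell genes 8 rose and 4 fell (median 0.73, same direction under all scalings), while with PBS 3 alone 2 rose and 2 fell. Upk3a, a uroplakin of a subset of club cells, was at -4.43, -3.57 and -4.01 on PBS arrays and at -0.47, -0.53 and 0.08 on LPS/NNK arrays, a difference of 3.70 (SE 0.34, adjusted p = 5.6e-06). The basal keratin Krt14 rose by 2.55 (SE 0.32). The 4 that fell were Scgb1a1, the secretoglobin that defines club cells, at 7.97, 7.92 and 7.68 on PBS arrays and at 5.68, 6.85 and 6.86 on LPS/NNK arrays (difference -1.39, SE 0.29), the club cell enzymes Aldh1a7 (-1.35, SE 0.23) and Ces1d (-1.63, SE 0.28), and the channel subunit Gabrp (-1.32, SE 0.24). With PBS 3 alone Scgb1a1 and Gabrp did not pass. Of 15 ciliated cell genes 5 fell and 2 rose, and the median of -0.58 stayed negative under all scalings, although under normexp 1 fell, against a background of 6.22%. The axonemal or ciliary genes Sntn, Dnah5, Dnah11, Ccdc39 and Spag6l had differences of -1.86, -1.48, -0.84, -1.74 and -0.90, and Ccdc39 turned positive under normexp. The 2 that rose are the regulators of ciliated cell fate Foxj1 (0.79, SE 0.26) and Ccno (0.79, SE 0.26), and neither passed under normexp. Foxj1 did not pass under quantile normalization, cyclic loess or with PBS 3 alone either.

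Endothelial genes showed no common direction. Of 28 tested 5 rose and 6 fell, with a median of -0.04. The angiopoietin receptor Tek was at 2.84, 3.33 and 3.103 on PBS arrays and at 0.85, 0.42 and 0.56 on LPS/NNK arrays, a difference of -2.48 (SE 0.33, adjusted p = 6.6e-05). The receptors Calcrl and Ednrb fell by 1.76 (SE 0.38) and 1.5 (SE 0.26) on the log2 scale. The 5 that rose were the arterial connexin Gja4 (1.93, SE 0.27), Mmrn2 (1.22, SE 0.29), Vwf (1.06, SE 0.31), Robo4 (0.88, SE 0.32) and Sox17 (1.21, SE 0.45), of which only Gja4 passed under quantile or loess scaling, under normexp or with PBS 3 alone. Under cyclic loess Vwf and Robo4 were negative. Fibroblast and matrix genes rose in 18 of 33 and fell in 6 (median 0.85, same direction under all scalings). Relative to all items the median was 0.89, but 0.42 under quantile normalization, 0.36 under cyclic loess and 0.22 under normexp. With PBS 3 alone it was 1.03. The median level of the list was 2.33, 2.02 and 1.66 on PBS arrays and 2.66, 2.18 and 1.91 on LPS/NNK arrays, so the groups overlapped. Mmp14, a membrane-bound collagenase, was at 2.47, 1.69 and 1.65 on PBS arrays and at 5.29, 5.68 and 5.35 on LPS/NNK arrays, a difference of 3.50 (SE 0.31, 11.3-fold, adjusted p = 4.4e-06). The collagen genes Col1a2, Col15a1 and Col5a1 rose by 2.60 (SE 0.36), 2.24 (SE 0.27) and 1.70 (SE 0.30), and Tcf21, a factor of lung fibroblasts, differed by -1.12 (SE 0.39), a call lost with PBS 3 alone and without PBS 2, PBS 3, LPS/NNK 3 or LPS/NNK 6.

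Proliferation genes rose in LPS/NNK lung. Of 44 cell cycle genes 28 rose and none fell, with a median of 1.17 and the same direction under all scalings, and 20 rose with PBS 3 alone and 23 under normexp. Plk1, a mitotic kinase, was at -0.18, -1.48 and -1.23 on PBS arrays and at 1.47, 1.79 and 1.499 on LPS/NNK arrays, a difference of 2.55 (SE 0.34, 5.86-fold, adjusted p = 5.9e-05). PBS 1 was the highest PBS array for Plk1 and still below every LPS/NNK array. The same order held for Cdc20, which activates the anaphase complex, with a difference of 2.70 (SE 0.31), for the kinase Aurka (2.48, SE 0.35) and for cyclin E1, Ccne1 (2.39, SE 0.34). Of 25 p53 target and DNA damage genes 6 rose and 8 fell, with a median of 0.01 that was negative under quantile normalization (-0.54) and cyclic loess (-0.56) and, relative to all items, turned from 0.04 to -0.62 under normexp. Sesn2, a stress-induced sestrin, rose by 2.67 (SE 0.30), Phlda3, an inhibitor of Akt, by 2.35 (SE 0.27) and the death gene Bbc3 by 1.71 (SE 0.29). Among the falls were the DNA polymerase Polk (-1.51, SE 0.22), whose other probe gave 0.17, and the excision nuclease Ercc5 (-1.59, SE 0.31), both lost under normexp. Of 26 genes of MAPK output and the EGF receptor family 6 rose and 3 fell, with a median of 0.24. Relative to all items that median was 0.28, and -0.04 under normexp. Cd44 (1.69, SE 0.34), Myc (1.501, SE 0.34), Phlda1 (1.37, SE 0.29) and the phosphatase Dusp4 (1.22, SE 0.30) rose, but Phlda1 did not pass under quantile normalization, cyclic loess or normexp, nor Myc with PBS 3 alone. The ligands Epgn (-1.84, SE 0.48) and Tgfa (-0.99, SE 0.29) and the GTPase Nras (-0.83, SE 0.24) fell, and both ligands turned positive under normexp. With PBS 3 alone Epgn and Nras did not pass, nor did Tgfa under cyclic loess.

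Of 37 genes of xenobiotic metabolism and the Nrf2 response 14 fell and 9 rose, with a median of -0.42 that stayed negative under all scalings. With PBS 3 alone 11 fell and 4 rose. Fmo1, a flavin monooxygenase, fell by 1.95 (SE 0.28) on the log2 scale. The glutathione transferase Gsta1 had a difference of -2.34 (SE 0.31), the retinaldehyde dehydrogenase Aldh1a1 of -1.58 (SE 0.21) and the sulfotransferase Sult1d1 of -3.65 (SE 0.62; well above background on 2 of 3 LPS/NNK arrays). Gstp1, another glutathione transferase, rose by 1.85 (SE 0.29), a call that was lost under cyclic loess.

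Respiratory chain genes rose in 20 of 42 and fell in 4 with a median of 0.69, but under quantile normalization 8 rose and 14 fell with a median of -0.06, and the median was -0.22 under cyclic loess, so their direction rests on the scaling. Uqcrc1, of complex III, rose by 2.18 (SE 0.27), Ndufa8 by 1.89 (SE 0.26), Atp5d by 1.88 (SE 0.25) and Cox4i1 by 1.65 (SE 0.25), the last a call lost under cyclic loess. The 4 that fell were Sdha (-1.11), Ndufv2 (-1.08), Ndufs1 (-0.94) and Ndufb5 (-0.74), of which Ndufs1 and Ndufb5 did not pass with PBS 3 alone, nor Ndufb5 under normexp. Endoplasmic reticulum genes rose in 11 of 20 and fell in 2 (median 0.75), though under normexp 2 rose and 2 fell and the median, 0.79 relative to all items, turned to -0.03. Trib3, a pseudokinase of the stress response, rose by 2.03 (SE 0.29), although its other probe gave 0.27, Herpud1 by 1.27 (SE 0.30), Asns by 1.31 (SE 0.32) and Sdf2l1 by 1.16 (SE 0.28). The stress factor Atf4 and the chaperone Dnajb9 had differences of -1.17 (SE 0.31) and -1.01 (SE 0.31). Herpud1, Asns and Sdf2l1 did not pass under normexp, Herpud1 under quantile normalization or cyclic loess, and Asns, Sdf2l1, Atf4 and Dnajb9 with PBS 3 alone. Fatty acid and cholesterol synthesis genes rose in 7 of 25 and fell in 3 (median 0.08, negative under quantile normalization, cyclic loess and normexp), with rises in Dhcr7 (2.29, SE 0.29), Mvd (1.91, SE 0.27), Srebf1 (1.74, SE 0.27) and Fasn (1.67, SE 0.30) and falls in Elovl6 (-1.5), Insig1 (-1.30) and Acaca (-0.77). Fasn dropped to 0.53 (adjusted p = 0.062) under quantile normalization and to 0.11 (adjusted p = 0.73) under cyclic loess. None of the 3 falls passed under normexp, and Acaca did not pass under quantile normalization, cyclic loess or with PBS 3 alone. Clock genes rose in 4 of 16 and fell in 4. Dbp, an output of the clock, was at 4.06, 5.30 and 3.13 on PBS arrays and at 5.94, 7.42 and 6.91 on LPS/NNK arrays, and Nfil3 (2.17), Bhlhe40 (1.15) and Bhlhe41 (1.27) also rose. Per3 (-2.37), Nr1d2 (-1.20), Per2 (-1.25) and Cry1 (-1.05) fell, although other probes of Per2 and Cry1 gave 1.198 and 0.34. Nr1d2, Per2 and Cry1 did not pass with PBS 3 alone, Bhlhe40, Per2 and Cry1 under normexp, and Cry1 under quantile normalization or cyclic loess. The hour at which lungs were taken is not given in the sources used here. Of 16 immediate early genes 5 rose and 1 fell: Junb (2.04, SE 0.27), Egr2 (1.65, SE 0.40), Egr1 (1.45, SE 0.34), Klf2 (1.17, SE 0.43) and Ier2 (0.78, SE 0.25) rose and Nr4a2 (-0.84, SE 0.33) fell. The direction for Klf2 turned under quantile normalization and cyclic loess, where Ier2 and Nr4a2 did not pass. Klf2, Ier2 and Nr4a2 did not pass with PBS 3 alone, nor did they or Egr1 under normexp.

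Reference genes did not stay level, and tissue that borders the lung varied. Of 14 housekeeping genes 5 rose (Rplp0, Rps18, Gapdh, Gusb and Ywhaz, by 1.85, 1.25, 0.98, 0.97 and 0.94) and 3 fell (Ppia, Tfrc and Tbp, with -2.12, -1.53 and -1.17), and the median of 0.33 turned to -0.39 under quantile normalization and -0.61 under cyclic loess. Relative to all items it was 0.36, and -0.46 under normexp. None of the 5 rises passed under quantile normalization or cyclic loess, where Rps18 and, under the latter, Gapdh were negative, and a second Ywhaz probe gave -1.43. Of the 3 falls, Tbp did not pass under normexp (-0.017, adjusted p = 0.98). With PBS 3 as the only control Tfrc differed by -0.53 and Tbp by -0.95. Among the others Actb (0.23), Hprt (-0.44), Pgk1 (-0.21), Rpl13a (0.35) and Eef2 (0.30) did not pass, although under quantile normalization and cyclic loess Hprt (-1.19 and -1.09), Pgk1 (-0.91 and -0.87) and Rpl13a (-0.60 and -0.75) passed as lower. Heart and pulmonary vein muscle genes fell in 6 of 12 and none rose (median -0.95, negative under all scalings), among them Pln (-2.15), Tnni3 (-1.94), Myl4 (-1.74) and Ryr2 (-1.16), of which Pln and Ryr2 did not pass under normexp. The summed level of those 12 genes ran from 6.46 to 7.45 on PBS arrays and from 5.86 to 7.09 on LPS/NNK arrays. Of 9 blood, fat, thymus and liver genes 2 rose, the globin Hba-a1 (1.08, SE 0.33) and the thymic enzyme Dntt (0.76, SE 0.29), and none fell. Hba-a1 passed in the opposite direction under quantile normalization (-0.69) and cyclic loess (-0.82), and a second Dntt probe gave -1.22. With PBS 3 alone neither Hba-a1 nor Dntt passed. The fat markers Adipoq and Retn were highest on PBS 3, at 1.26 and -1.41, and neither passed in the main fit. Adipoq (-1.68) did pass as lower under detected-probe scaling (-2.04), with the filter to probes detected on all arrays and with slide or replicate number as a block. It also passed without PBS 1, PBS 2 or LPS/NNK 3. Retn (-1.14) passed as lower with the replicate block and without PBS 1. With PBS 3 as the only control Adipoq and Retn differed by -3.40 and -2.73, values that rest on that 1 array. The part of adjoining heart or fat tissue in any other result was not tested.

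Several of the largest changes lay outside the lists. H2ac4, a replication-linked histone gene of a near-identical family, was at -1.76, -5.42 and -5.19 on PBS arrays and at 0.15, 3.99 and 4.64 on LPS/NNK arrays (difference 7.05, SE 1.06), so PBS 1 stood well above the other PBS arrays and LPS/NNK 2 well below the other LPS/NNK arrays. The protease inhibitor Spink5 and the tetraspanin Tspan10 were not well above background on any PBS array and were at least 23.7-fold and 18.3-fold higher in LPS/NNK. Dnase1l3, a nuclease of macrophages and dendritic cells, was at -3.71, -4.03 and -2.96 on PBS arrays and at 2.60, 2.52 and 2.02 on LPS/NNK arrays, a difference of 5.95 (SE 0.40, adjusted p = 1e-06). The receptor gene Gpr162 rose by 5.65 (SE 0.30) and Mab21l3, well above background on 1 of 3 PBS arrays, was 20.4-fold higher with the others set to the lowest detected level. Dmbt1, a mucosal scavenger protein, was at 1.24 and 1.69 on LPS/NNK arrays 2 and 3 but at -3.12 on LPS/NNK 6, and at -5.53, -6.53 and -4.39 on PBS arrays. Cd209b, a C-type lectin of marginal and lymphatic sites, fell from -1.28, -0.65 and -0.43 on PBS arrays to -7.77, -5.68 and -3.69 on LPS/NNK arrays. It was well above background on 1 of 3 LPS/NNK arrays, and with the other LPS/NNK arrays set to the lowest detected level it was 16.3-fold lower (adjusted p = 0.00019 for the measured values). Xdh, xanthine dehydrogenase, fell from 1.95, 2.68 and 2.53 to -1.42, -2.33 and -2.23, with no overlap and both its probes alike (difference -4.38, SE 0.33). The natriuretic peptide clearance receptor Npr3 (-3.52, SE 0.41) and the platelet regulator Rgs18 (-3.72, SE 0.36) fell with all their probes. Tatdn2 (-4.003), Cst8 (-3.999), Omd (-3.54) and Eml6 (-3.67) fell too, though a second Eml6 probe gave -0.24. Of the 3 LPS/NNK arrays, Tatdn2 and Cst8 were well above background on 2 and Omd and Eml6 on 1, and Omd did not pass under normexp (-0.32, adjusted p = 0.55). Sin3b and Kif12 were not well above background on any LPS/NNK array, at least 9.88-fold and 11.7-fold lower, and neither passed under normexp.

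Fewer items passed between LPS/NNK and LPS alone than between LPS/NNK and PBS. Against the LPS arrays 896 items passed (4.1%; 2.17% of named genes higher and 1.29% lower), and against the NNK arrays 3774 (17.3%; 8.88% higher and 8.32% lower). The count against LPS was unstable: limma called 4823 without LPS/NNK 2, 78 without LPS/NNK 3, 109 without LPS/NNK 6 and 296 to 565 without 1 of the LPS arrays. Under normexp it called 0, with 1547 at an unadjusted p under 0.05, and 38 when only the arrays of the 2 groups were fitted. Against NNK the count was 5814 without LPS/NNK 2, 1787 without LPS/NNK 3, 2023 without LPS/NNK 6, 1631 without NNK 2 and 1576 without NNK 3. The 3 comparisons share the LPS/NNK arrays, so their values are set side by side without a measure of likeness. Cxcr3 differed by 4.36 from PBS, by 0.94 from LPS (not passing) and by 2.72 from NNK. C1qc differed by 5.29, 0.98 (not passing) and 3.50, and Jchain by 4.46, -0.52 (not passing) and 4.00. For these 3 genes the difference from LPS alone was smaller in size than that from NNK alone, and the NNK mean lay below that of LPS/NNK. Not passing against LPS does not show equal levels. Ifng was also higher than with LPS alone, by 1.78, and higher than with NNK alone, by 5.22, as Gbp5 was, by 1.67 and 4.14. Of the interferon gamma list 1 of 18 rose against LPS and 10 against NNK, and of the cell cycle list 1 of 44 rose against LPS and 24 against NNK. For the genes that follow the difference from NNK did not pass: Lrg1 (0.42), Upk3a (-0.14), Nfkb2 (0.56), Uqcrc1 (0.48), Dhcr7 (0.07), Cav2 (-0.90), Hopx (-0.01), Tek (-0.99) and Xdh (-0.84). Their differences from LPS did not pass either (0.68, -0.44, 0.05, 0.61, 0.54, -0.11, 0.03, -0.38 and -0.34), so for these genes only the difference from PBS passed.

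LPS/NNK lay beyond every other group, in all 3 comparisons and with no overlapping array, for 85 named genes above and 84 below. These are out of 13654 named genes tested, with clone names passed over. Each needed a call against LPS, whose count of 896 became 0 under normexp and 38 with the 2 groups alone. By the smallest of the 3 differences the leading genes above were Slc4a7, Il17a, Pinx1, Ddx23, Pdyn and Igf2bp3. Slc4a7, a bicarbonate transporter, was at -1.42, 0.32 and 0.40 on PBS arrays and at 2.83, 7.11 and 6.99 on LPS/NNK arrays, and differed by 5.88 from PBS, 4.86 from LPS and 3.59 from NNK. LPS/NNK 2 was well below its group, and another of the 3 Slc4a7 probes gave -0.23 against PBS. Il17a, chosen on its measured values, was well above background on 1 of 3 LPS arrays and on no NNK array. Pdyn, the opioid precursor, was at -5.63, -4.66 and -5.85 on PBS arrays and -1.93, 0.03 and -0.30 on LPS/NNK arrays, 4.65 above PBS, 1.84 above LPS and 3.94 above NNK. Pinx1, an inhibitor of telomerase, was 2.25, 2.001 and 2.53 above, the splicing helicase Ddx23 2.29, 1.94 and 2.09. The RNA-binding protein Igf2bp3, found in fetal tissue and tumours, was well above background on 2 PBS arrays, no LPS or NNK array and all LPS/NNK arrays. Hjv, Adrb1, Ppia, Dpysl5 and Epas1 were among the leading genes below. Epas1, the hypoxia factor HIF-2 alpha of lung endothelium and type 2 cells, was at 0.75, 1.45 and 1.49 on PBS arrays and at -1.34, -2.85 and -2.49 on LPS/NNK arrays. It differed by -3.46 from PBS, -1.86 from LPS and -2.40 from NNK. The beta-1 adrenergic receptor Adrb1 differed by -2.52, -2.19 and -3.24, and Ppia, cyclophilin A, by -2.12, -2.04 and -2.11. Hjv (-2.23, -2.29 and -2.47) and Dpysl5 (-1.96, -2.10 and -2.84) were well above background on 1 of 3 LPS/NNK arrays, and their differences from PBS turned positive under normexp. Among genes named above, Scgb1a1 was lower than in both other groups (-1.69 against LPS and -1.41 against NNK), as was Etv5 (-1.69 and -1.66), and Mmp14 was higher (1.75 and 2.64).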

How the data were processed

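Total RNA of 12 lung tissue samples (3 for each of PBS, LPS, NNK and LPS/NNK) was measured on single-colour Agilent arrays. Per the file headers the deposited scanner files give each spot's intensity on a linear scale after Agilent Feature Extraction, version 10.7 per the submitters' processing notes, which also name Partek. The authors' deposited value table holds log2 values of the same arrays and was used as an alternative only. No spot was saturated.

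Control and outlier spots were left out, spots of 1 probe averaged, and log2 of the processed signal taken relative to each array's 75th percentile. Of 41137 usable probes, 28342 passed the scanner's background test in all 3 arrays of some group. The brightest probe stood for each symbol or, without a symbol, each accession. In 4721 genes with several such probes the 2 brightest differed in sign in 29.13%. limma version 3.58.1 (lmFit, eBayes; 2-sided; 1 mean per group, all 12 arrays, Benjamini-Hochberg over all 21863 items) gave the differences, adjusted p under 0.05 being the call; the code was tested on simulated data. At 3 arrays a group their number limits the precision.

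The comparison and the 40 gene lists were chosen with earlier results of these data known. Genes were named by rule: the 12 largest rises and falls whose arrays did not overlap, from each list the 4 best by p plus the largest rise and fall, the 6 genes farthest above and below all other groups, all members of counts of 5 or fewer, and sex-linked and reference genes. Scanner files lacked the mean signal, so the normexp alternative used the median signal with an offset of 50. Other alternatives were quantile, cyclic loess and detected-probe scaling, other filters, probe averaging, 2 groups only, a trended robust fit, array weights, a test against a log2 difference of 1, the slide or replicate number as a block, leaving out each array, and PBS 3 as the only control. A few genes that these rules would name are not reported here.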

Additional observations from a re-analysis of the deposited data

How the results depend on the processing

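Against PBS 12038 items passed, 6106 higher and 5932 lower. These counts moved beyond 1.5 times under normexp (6519 in all, 1338 lower), with no filter on dim probes (18656, 12728 higher), with the filter to probes detected on all arrays (3417 lower), in the test against a log2 difference of 1 (2808, 1542 higher, 1266 lower) and with PBS 3 as the only control (6618, 3817 higher, 2801 lower). Leaving out 1 array gave 10190 to 11861 calls, 5223 to 6268 higher and 4848 to 5642 lower. Against LPS (896) the counts were 0 under normexp, 338 without the filter, 38 with the 2 groups alone, 9133 with array weights, 2 against a log2 difference of 1 and 78 to 4823 with 1 array left out. Against NNK (3774) they were 377, 2515, 2901, 13539, 208 and 1576 to 5814. Slide as a fixed effect could not be fitted against LPS. The median difference of all items was -0.04, and -0.12 under quantile normalization and cyclic loess, -0.40 with detected-probe scaling and 0.52 under normexp.

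The replicate numbers share no source in the labels, and deviations of same-numbered arrays correlated at 0.12 and 0.02. With the replicate block 12038 items passed against PBS (5750 higher, 6288 lower), 1889 against LPS and 3696 against NNK.

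Of 240 named genes called, 110 kept the call in every alternative table. Under normexp 55 lost it, against a log2 difference of 1 116 did, and with slide as a fixed effect 37. Without 1 PBS or LPS/NNK array 14 to 27 lost it. Signs turned under normexp for Arg1 (0.54), Ccdc39 (0.18), Ccl24 (0.15), Cd209a (0.60), Cpa3 (0.76), Cry1 (0.32), Dpysl5 (0.80), Ebf1 (0.10), Epgn (0.15), Hjv (0.16), Hpx (0.39), Il1a (0.85), Siglech (0.53), Tgfa (0.35), Tlr3 (0.21) and Tlr8 (1.08). They turned under quantile normalization and cyclic loess for Hba-a1 (-0.69, -0.82), Klf2 (-0.014, -0.28), Robo4 (-0.021, -0.21), Rpl13a (-0.60, -0.75), Rps18 (-0.19, -0.47), Scnn1a (-0.090, -0.29) and Sftpa1 (-0.32, -0.48), under cyclic loess for Gapdh (-0.13), Gprc5a (-0.13), Sftpc (-0.34) and Vwf (-0.21), with the mean of probes for Dntt (-0.23) and Ywhaz (-0.24), and with PBS 3 alone for Xist (-0.63). The causes were not tested. Signal over background limits falls of dim probes, since detection ends at a higher level on LPS/NNK arrays.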
